A study of Mus musculus with 4 samples.

Results

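The transcription factors of the ETS family other than Spi1, together with serum response factor, were examined in leukemia-initiating cells (LICs) of a murine MLL-AF9 leukemia. The 10 genes are Elk1, Elk3, Elk4, Srf, Ets1, Ets2, Fli1, Erg, Elf1 and Etv6, taken by name and found by NCBI gene number among the 27179 genes of the table. The family was selected on results of this comparison, above all the low Elk4 FPKM of the libraries labelled CD274-null, so the differences of its members are described and carry no p-value. RNA was sequenced in 4 libraries of C57BL/6 bone marrow LICs, 2 labelled wild type (WT) and 2 labelled CD274-/- (CD274-null), all with an age of 6 weeks on the label. In the model, Lin- fetal liver cells of either genotype were infected with a retrovirus that carries the MLL-AF9 fusion oncogene, driven by the viral promoter and tagged with YFP, and were transplanted into irradiated C57BL/6 recipients, so that both groups carry the oncogene and grow in hosts that may keep marrow cells of their own. The labels state a sort by flow cytometry without naming its markers, and the study, which defines LICs as Mac-1+/c-Kit+ cells, calls the sequenced cells LICs and gives the RNA input by weight of tissue; whether a library came from 1 mouse or a pool, and from which round of transplantation, is not stated in the sources used here.

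ETS proteins share a DNA-binding domain that recognizes a GGAA core. Elk1, Elk3 and Elk4 form the ternary complex factors, which sit beside a dimer of serum response factor (SRF, the product of Srf) on the promoters of growth factor-induced genes and are switched by MAP kinase phosphorylation, while SRF itself binds the CArG box, an A/T-rich element flanked by CC and GG. The other members include factors known from blood formation: Erg and Fli1 in stem cells and megakaryocytes, Ets1 in lymphocytes, and Etv6, a repressor needed by stem cells of the adult marrow.

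Promoter sequences of Elk4, the member with the largest difference, and of Srf, the partner of the ternary complex factors, are shown because each holds an element that these factors bind. Sequences are from RefSeq (GRCm38.p6), and 8 of the 10 members had an entry, Ets1 and Fli1 having none. RefSeq lists promoters by transcript start, and a gene can have several. The start used for Elk4, chr1:132007620, lies 43 bases inside the outermost start of the gene, and the 1 used for Srf, chr17:46556162 on the minus strand, lies 2105 bases inside the outermost bound of its RefSeq gene but 13 bases inside that of GENCODE. The stretches printed 5′ to 3′ lie before these starts and outside the GENCODE exons of each gene, for Elk4 the 87 bases up to the outermost start (chr1:132007490-132007576, plus strand) and for Srf 117 bases (chr17:46556176-46556292, minus strand). Capitals mark the ETS element CCGGAAGT in Elk4, which starts 25 bases before the outermost start and 68 before the listed one, and the CArG boxes in Srf, which start 82 and 62 bases before its listed start.
Elk4: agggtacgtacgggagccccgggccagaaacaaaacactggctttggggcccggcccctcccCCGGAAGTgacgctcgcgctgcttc
Srf: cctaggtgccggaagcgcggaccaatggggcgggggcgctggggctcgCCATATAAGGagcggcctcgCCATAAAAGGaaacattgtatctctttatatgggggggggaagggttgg
Both strands of the 250 bases before each listed start were searched. The 8 members have 13 such windows. CCGGAAGT, which contains GGAA, occurred in 1 of them, at Elk4, and in 2.88% of all 32851 windows. The CArG box occurred in 1 of them, at Srf, and in 1.47% of all windows. The bare GGAA occurred in 11 of the 13 and in 93.4% of all windows. A match describes these letters and is not evidence of binding.

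The deposited values are FPKM, fragments scaled by gene length and by mapped reads, so levels of different genes can be set side by side. Between 8452662 and 11048767 reads per library were recovered from them. Cd274, the deleted gene, did not separate the labels, with an FPKM of 2.80 and 0.945 in WT, against 1.43 and 2.29 in CD274-null; a value per gene does not show which exons were read, and every direction below rests on the labels alone. The LIC surface markers Itgam (Mac-1) and Kit were present in all 4 libraries, Itgam at 100 to 174 and Kit at 6.59 in WT replicate 1 and 16.2 to 19.5 in the others. In limma on log2(FPKM + 0.5), 480 of 13230 tested genes were candidates, by which is meant p under 0.01 before adjustment and a change of more than 1.5-fold, 316 higher and 164 lower in CD274-null; after quantile normalization the split was 253 and 210, with equal medians 247 and 200, and with a correction for GC content, over the 11435 genes with a transcript to take it from, 160 and 162. All 10 members passed the filter of a mean FPKM of 0.5, and they are ordered below by role. After Benjamini-Hochberg adjustment in limma 10 genes, 0.0756% of those tested, were under 0.05, and 0 of the members were among them.

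Elk4, also known as SAP-1, was the member with the largest difference. It had an FPKM of 12.3 and 13.0 in the libraries labelled WT and of 4.04 and 2.98 in those labelled CD274-null, from 522, 485, 131 and 109 reads. The groups were far apart and the libraries within each group close together. The mean was 12.6 ± 0.484 (SD, n = 2) in WT and 3.51 ± 0.745 (SD, n = 2) in CD274-null, 3.60-fold lower (log2 fold change -1.72, standard error, SE, 0.29). Elk4 (chromosome 1, 132007577 to 132026448 of GRCm38) was the 1 member of 10 called a candidate, where 3.63% of all tested genes were called in either direction and 1.24% as lower. Because this contrast chose the gene, nothing is read from that count. The candidate call was lost in an unmoderated linear model and without CD274-null replicate 2, with a log2 fold change of -1.53 in the latter. The GC content of its longest transcript, 48.5%, was near the median of 49.8% over tested genes, and after correction of each library for GC content the log2 fold change was -1.71.

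Elk3, or Net, a ternary complex factor that represses in resting cells, ran the other way in level. Its FPKM was 5.06 and 8.23 in WT, against 12.02 and 8.73 in CD274-null, from 248, 355, 450 and 368 reads. The groups did not overlap, but WT replicate 2 and CD274-null replicate 2 were nearly level. Its log2 fold change was 0.62 (SE 0.34), and it ran from 0.30 to 0.95 with each library left out. Elk3 lies on chromosome 10 from 93247415 to 93311159.

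Elk1, the first described ternary complex factor, had the lowest mean FPKM of the 10 members over the 4 libraries. In CD274-null its mean, 3.52, was level with that of Elk4, 3.51. It stood at an FPKM of 3.91 and 3.72 in WT, against 4.09 and 2.95 in CD274-null, from at least 80, 67, 64 and 52 reads. The groups overlapped, and CD274-null replicate 1 held the highest value and CD274-null replicate 2 the lowest. The log2 fold change was -0.12 (SE 0.32). Elk1 lies on chromosome X from 20933395 to 20950608.

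The make-up of the ternary complex factors follows from these values. Because the shares and ratios are built on the Elk4 FPKM that chose the family, they are a description from which nothing further is read. Elk4 held 57.8% and 52.1% of their summed FPKM in WT, against 20.03% and 20.3% in CD274-null. Elk3 held 23.8% and 33.0% in WT, against 59.7% and 59.5% in CD274-null. Elk4 was the highest of the 3 genes in both WT libraries, and Elk3 in both CD274-null libraries. The ratio of Elk3 to Elk4 FPKM was 0.412 and 0.635 in WT, against 2.98 and 2.93 in CD274-null. The share of Elk1 moved less, from 18.4% and 14.9% to 20.3% and 20.1%. The 3 genes summed to an FPKM of 21.3 and 24.9 in WT, against 20.1 and 14.7 in CD274-null, so that the sum of CD274-null replicate 1 was close to that of WT replicate 1 and replicate 2 lay apart. In replicate 2 of each label, where Elk3 FPKM was nearly level (8.23 and 8.73), its share moved with the Elk4 FPKM.

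**Figure D1:**
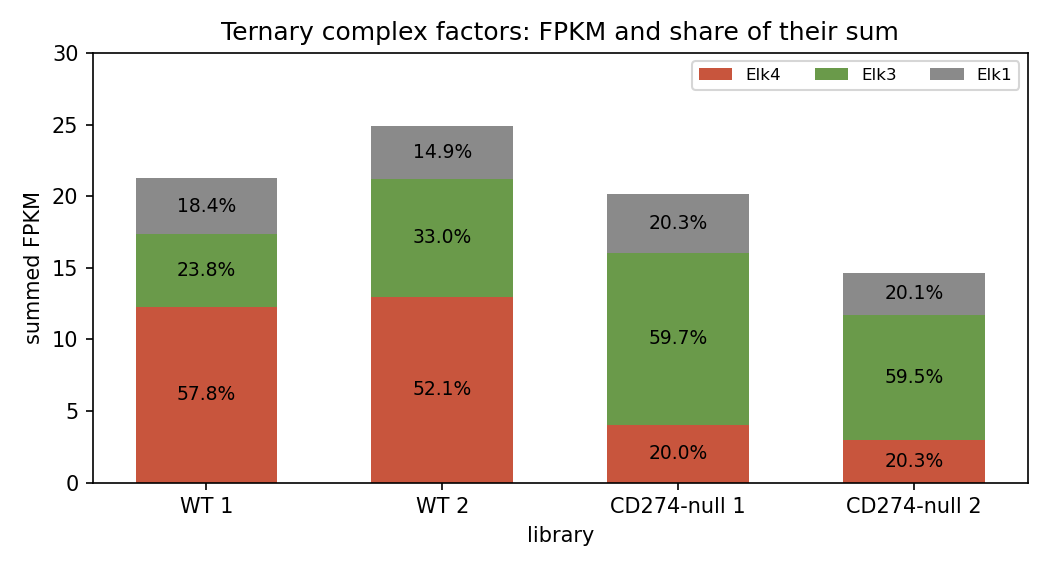
Summed FPKM of the ternary complex factors in each library (bars, from 0), split into Elk4, Elk3 and Elk1 with the share of each printed as a percentage. Elk4 is the largest part of both WT bars (57.8% and 52.1%) and Elk3 of both CD274-null bars (59.7% and 59.5%).

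Srf, the partner of these factors, had a higher FPKM than their sum in every library. Its FPKM was 37.7 and 42.4 in WT, against 52.7 and 44.9 in CD274-null, from 1787, 1765, 1906 and 1830 reads. The groups did not overlap, with the lower CD274-null library close above the higher WT library. The log2 fold change was 0.28 (SE 0.21), and of the alternatives tried the correction for GC content, alone and with the replicate number as a block, brought it to 0.04. The longest Srf transcript has a GC content of 64.4%, the highest of the 10 members. Scaled to the median gene, the FPKM and reads of Srf imply a length 1.62 times that transcript, so this GC content may not cover all that was read. Over the 11435 tested genes with a transcript, which are not independent replicates, Spearman's rho between GC content and fold change was 0.271. Srf FPKM was 1.78 and 1.70 times the sum of the ternary complex factors in WT, against 2.61 and 3.06 times in CD274-null. That sum includes the Elk4 FPKM that chose the family. Srf lies on chromosome 17 from 46546838 to 46558267.

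Ets1, a factor prominent in lymphocytes, was the member with the highest log2 fold change. Its FPKM was 11.5 and 4.15 in WT, against 16.02 and 15.9 in CD274-null, from 674, 214, 717 and 800 reads. The CD274-null libraries were nearly equal and above both WT libraries, and WT replicate 2 lay far below the other WT library. The log2 fold change was 1.14 (SE 0.46). It was 0.45 without WT replicate 2 and 1.82 without WT replicate 1, where Ets1 met the rule for a candidate, so that its size rests on the WT library kept. Of 8 markers of T and NK cells, 2 passed the filter, and the list summed to an FPKM of 33.1 and 13.2 in WT, against 71.0 and 87.1 in CD274-null. Nearly all of that sum was Nkg7, a granule protein of NK and cytotoxic T cells, at 32.4, 11.7, 67.2 and 85.7, and Nkg7 was a candidate (log2 fold change 1.93, limma's adjusted p = 0.269). Lck, a kinase of T cells and the other marker that passed, was 0.188 and 0.299 in WT, against 1.13 and 0.481 in CD274-null, without overlap (log2 fold change 0.77, limma's adjusted p = 0.515). The groups of Cd3e, Cd3g and Cd8a did not overlap either, CD274-null lying above WT on 0 to 10 reads in each library, so that this held for 5 of the 8 markers, 3 of them below the filter, while among all tested genes 25.6% lay higher in CD274-null without overlap. The T cell receptor chains Cd3e, Cd3d and Cd3g were at or under 0.884 in every library, and Klrb1c, an NK cell receptor, at or under 0.516. Nkg7 thus stood in the same order as Ets1 in the WT libraries and was higher with it in both CD274-null libraries, and its part in the result was not tested. The 5 plasma cell markers summed to 0.539 and 1.01 in WT, against 13.9 and 12.3 in CD274-null, mostly the antibody joining chain Jchain, a candidate with a log2 fold change of 3.65 (limma's adjusted p = 0.0369). The 7 B cell markers summed to 12.8 in WT replicate 1 and to 36.5 to 39.3 in the other libraries, nearly all of it Cd79b, while Ms4a1, Ebf1 and Pax5 were at or under 0.416. The erythroid markers found summed to 55.6 in WT replicate 2, the library where Ets1 was low, and to at most 4.73 in the others. The part of these cells in the Ets1 values was not tested either. In bulk RNA, fewer cells of a type and less RNA per cell cannot be told apart. Ets1 lies on chromosome 9 from 32636241 to 32757820.

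Ets2, a close relative of Ets1 that is a substrate of MAP kinases, varied as much within the labels as between them. It had an FPKM of 31.6 and 19.9 in WT, against 23.6 and 46.6 in CD274-null, from 1301, 719, 743 and 1649 reads. The groups overlapped, with WT replicate 1 and CD274-null replicate 2 as the higher library of their groups. The log2 fold change was 0.40 (SE 0.39) and ran from -0.08 to 0.88 with each library left out. The same libraries were the higher ones of their groups for the growth factor type SRF targets, whose summed FPKM was 2167 and 1195 in WT, against 743.1 and 2453 in CD274-null. Ets2 lies on chromosome 16 from 95702407 to 95721049.

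**Figure D2:**
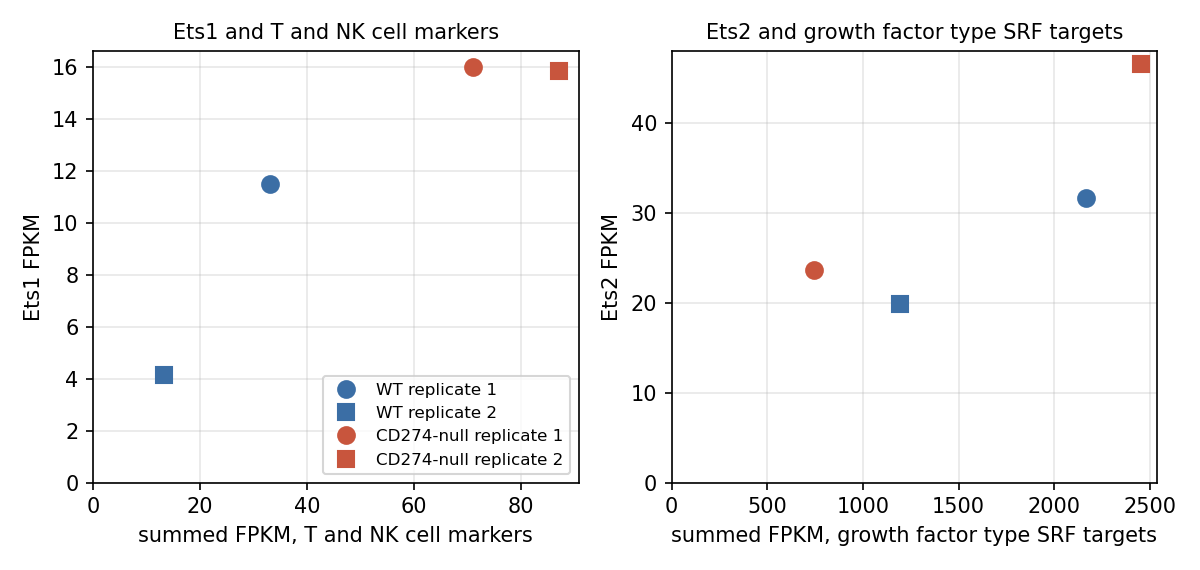
Left, Ets1 FPKM against the summed FPKM of 8 T and NK cell markers; right, Ets2 FPKM against the summed FPKM of 9 growth factor type SRF targets; each point is 1 library and both axes start at 0. Ets1 is lowest in WT replicate 2 (4.15), where the marker sum is also lowest (13.2), and Ets2 is highest in CD274-null replicate 2 (46.6), where the target sum is also highest (2453).

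Fli1 and Erg encode closely related ETS factors. Fli1 was the steadiest member, at an FPKM of 40.3 and 33.3 in WT, against 38.9 and 38.3 in CD274-null, its highest value being 1.21 times its lowest. The groups overlapped, and the log2 fold change was 0.07 (SE 0.21). Erg was 28.1 and 30.3 in WT, against 15.4 and 28.2 in CD274-null, so that 1 library alone, CD274-null replicate 1 with 301 reads against 621 to 721 in the others, was low. Its groups overlapped, CD274-null replicate 2 lying just above WT replicate 1. The log2 fold change of Erg was -0.48 (SE 0.32), and -0.05 without CD274-null replicate 1.

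Endothelial cells and megakaryocytes, which also express Erg and Fli1, were checked by their markers. Of 6 endothelial markers, Emcn was listed at 0 in all 4 libraries, Cdh5, Kdr and Tek were at or under 0.028, and the list summed to 0.825 and 1.27 in WT, against 0.492 and 0.439 in CD274-null, without overlap. Most of that sum was Vwf, von Willebrand factor, which megakaryocytes also make, at 0.784 and 1.19 in WT, against 0.385 and 0.285 in CD274-null (log2 fold change -0.82, limma's adjusted p = 0.447). Its part in the Erg and Fli1 values was not tested. For megakaryocytes, Pf4 and Ppbp were listed at 0 in all 4 libraries, and the 6 markers summed to 6.33 and 7.63 in WT, against 5.07 and 15.3 in CD274-null, Itga2b being the highest of them in every library and Gp9 and Gp1ba the next. Fli1 lies on chromosome 9 from 32422204 to 32543432 and Erg on chromosome 16 from 95359169 to 95586600.

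Elf1 and Etv6 were the most abundant of the members. Elf1, a factor of the ELF branch to which Elf2 and Elf4 also belong, had an FPKM of 55.6 and 76.0 in WT, against 63.4 and 53.4 in CD274-null. Those groups overlapped, WT replicate 2 being the highest library, and the log2 fold change was -0.16 (SE 0.24). Etv6, also known as TEL, had 50.9 and 59.8 in WT, against 38.0 and 47.0 in CD274-null, from 3261, 3376, 1861 and 2591 reads. Its groups did not overlap. The log2 fold change was -0.38 (SE 0.22), and lay between -0.53 and -0.23 with each library left out. Elf1 lies on chromosome 14 from 79481174 to 79582491 and Etv6 on chromosome 6 from 134035700 to 134270158.

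**Figure D3:**
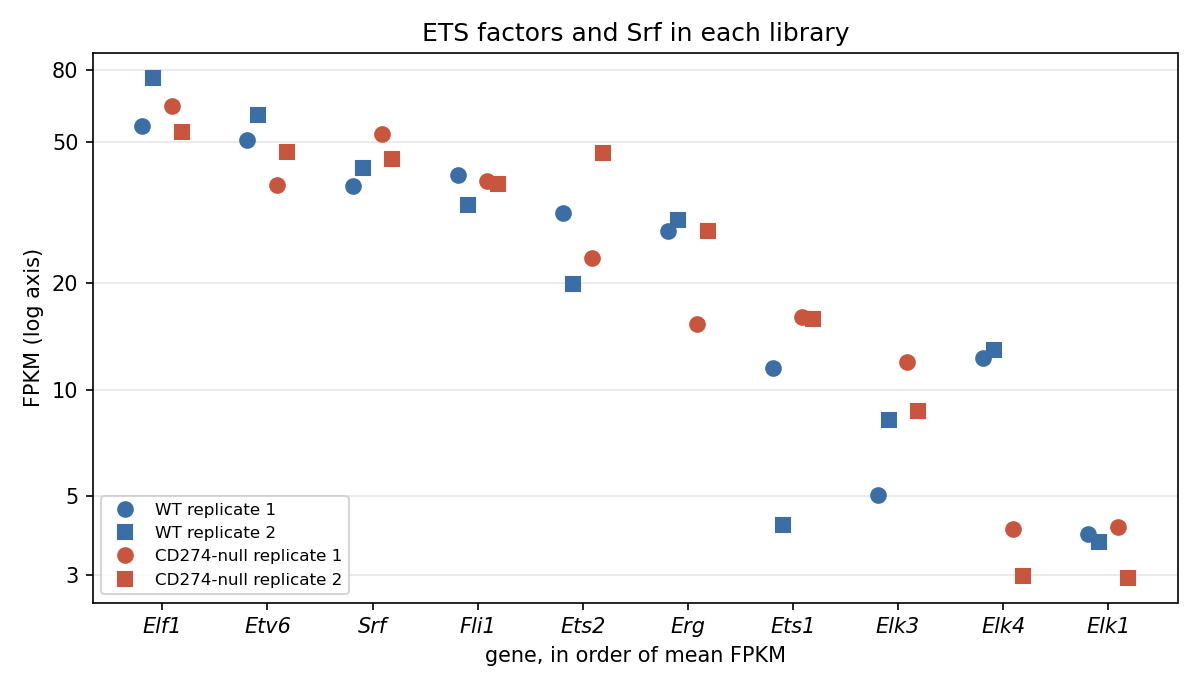
FPKM (log axis) of the 10 genes in each library, in order of their mean; blue marks WT and red CD274-null, circles replicate 1 and squares replicate 2. Elk4 shows the widest gap between the labels (12.3 and 13.0 against 4.04 and 2.98), while the 4 points of Fli1 lie between 33.3 and 40.3.

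Across the members, the mean FPKM over the 4 libraries ran from 62.1 for Elf1 through Etv6, Srf, Fli1, Ets2, Erg, Ets1, Elk3 and Elk4 to 3.67 for Elk1. Elf1 was above Etv6 in 4 of 4 libraries. Every other neighbouring pair kept its order in 3 of 4 libraries, except Elk3 and Elk4, which kept it in 2, so the order of most neighbours did not hold in every library. It pools both labels, and in WT the mean of Elk4, 12.6, was above those of Ets1, 7.83, and Elk3, 6.65. By log2 fold change, 5 of the 10 members were higher and 5 lower in CD274-null, with a median of -0.02 beside 0.01 over all tested genes. The groups did not overlap for 5 members, Elk3, Srf and Ets1 higher and Elk4 and Etv6 lower, and this held for 47.3% of all tested genes, 25.6% higher and 21.8% lower. Nothing is read from these counts, because the contrast was known when the genes were chosen.

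**Figure D4:**
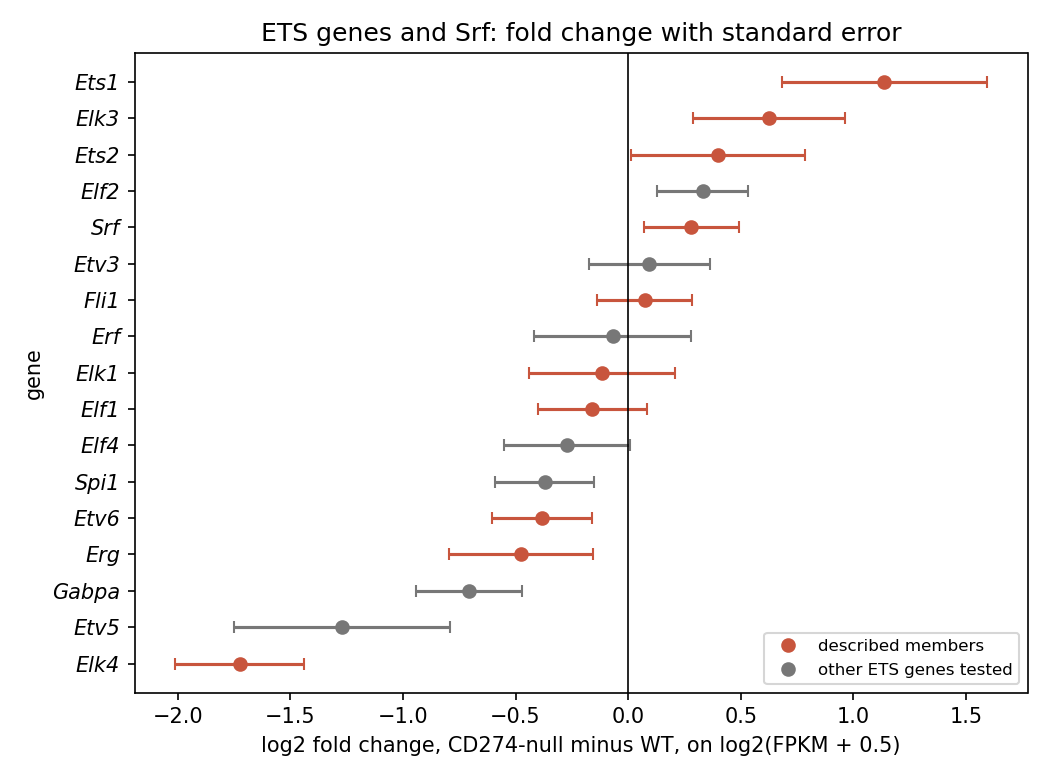
Log2 fold change on the log2(FPKM + 0.5) scale, CD274-null minus WT, with its standard error (bars), for the 10 members (red) and the 7 other ETS genes tested (grey). Elk4 at -1.72 and Ets1 at 1.14 are the extremes; the bars of Elk1, Fli1, Elf1, Elf4, Etv3 and Erf cross 0.

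The rest of the ETS family was a list of 18 genes. Of these, 7 passed the filter and 0 were candidates, with 2 under an unadjusted p of 0.05 in limma, Gabpa and Etv5, where 13.7% of all tested genes were; limma's voom on the recovered reads also called 0. Spi1, which encodes PU.1, the master factor of myeloid cells, was the most abundant ETS gene by far. It had an FPKM of 356 and 332 in WT, against 271 and 259.9 in CD274-null (log2 fold change -0.37, SE 0.22, limma's adjusted p = 0.495 after the Benjamini-Hochberg method). After the correction for GC content, which is 58.9% in its longest transcript, the log2 fold change was -0.63, with an unadjusted p of 0.0226 and an adjusted p of 0.341, and it was not a candidate. Spi1 alone held 49.9% and 46.3% of the FPKM summed over the 27 ETS genes in WT, against 44.5% and 42.4% in CD274-null, and the ternary complex factors held 2.39% to 3.48%.

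Gabpa, the ETS subunit of GA-binding protein, which serves promoters of mitochondrial and housekeeping genes, had an FPKM of 27.2 and 27.4 in WT, against 18.9 and 14.5 in CD274-null (log2 fold change -0.71, SE 0.24, limma's adjusted p = 0.313). Its partner subunit Gabpb1 had 24.0 and 22.7 in WT, against 16.7 and 15.3 in CD274-null (log2 fold change -0.53, limma's adjusted p = 0.362). For both, the groups did not overlap, and neither was a candidate. Gabpb2, which encodes the alternative partner, was at 24.8 and 24.8 in WT, against 23.4 and 14.97 in CD274-null.

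Etv5, of the PEA3 group of ETS activators, was low, at 0.792 and 1.85 in WT, against 0.207 and 0.236 in CD274-null (log2 fold change -1.27, SE 0.48, limma's adjusted p = 0.344). With a pseudocount of 0.1 the log2 fold change was -2.04, and in voom -2.36. Elf2, Elf4, Erf and Etv3 had log2 fold changes between -0.27 and 0.33. The median over the 7 tested genes was -0.27, beside 0.01 over all tested genes. The 11 remaining genes were below the filter, and 3 of them, Ehf, Fev and Spdef, were listed at 0 in all 4 libraries.

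Among 11 cofactors of SRF, the ETS factors and their targets, 10 were tested and 1 was a candidate, lower in CD274-null. Over all tested genes 3.63% were candidates in either direction and 1.24% as lower. Nab1, a corepressor of the EGR proteins, had an FPKM of 23.8 and 23.3 in WT, against 13.0 and 11.5 in CD274-null (log2 fold change -0.92, SE 0.22, limma's adjusted p = 0.269). The call was lost without the trend in eBayes and with any 1 library left out, while the log2 fold change was -0.84 or lower in each of these. Hmga1, Mrtfa and Ep300, the most abundant of the list, had log2 fold changes of 0.00, 0.32 and -0.03, none past the test, those of Hmga1 and Mrtfa being -0.28 and 0.07 after the GC correction; Mrtfa, which encodes the actin-regulated SRF coactivator MRTF-A, was low in WT replicate 1 alone (26.2, against 41.9 to 48.1). The list's median was -0.23.

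Of the 9 kinases that can phosphorylate ternary complex factors, 6 were tested and 1 was a candidate, where 3.63% of all tested genes were, 2.39% as higher in CD274-null. The candidate was Mapk3, which encodes ERK1, at 60.5 and 67.0 in WT, against 101 and 115 in CD274-null (log2 fold change 0.75, limma's adjusted p = 0.274). Its call was kept under 2 of 16 alternatives, the pseudocount of 1 and no filter, with a log2 fold change of 0.52 to 0.85 over all 16. Mapk14, which encodes p38 alpha, had a log2 fold change of 0.32 and was not a candidate. The list's median was -0.14.

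The SRF targets were listed in 2 classes. Over all tested genes, for comparison, 3.63% were candidates and 13.7% had an unadjusted p under 0.05 in limma. Of 9 growth factor type targets, which ternary complex factors serve, all 9 were tested and 0 were candidates, 0 at an unadjusted p under 0.05, and 0 by voom. Fos, Ier2 and Junb, the most abundant, had log2 fold changes of -0.45 (SE 0.55), -0.25 (SE 0.47) and -0.48 (SE 0.48), the last 2 becoming -0.52 and -0.75 after the GC correction. With each library left out they ran from -1.32 to 0.43, from -0.87 to 0.38 and from -1.09 to 0.12. In the class 7 genes were lower in CD274-null and 2 higher, Fosb at 1.19 (SE 0.89) and Nr4a1 at 0.96 (SE 0.60). The groups overlapped for every gene of the class. Of 15 actin type targets, which MRTF coactivators serve, 11 were tested and 0 were candidates, 1 at an unadjusted p under 0.05 (Tagln, which encodes transgelin, named after its values were seen, with a log2 fold change of 0.86), and 0 by voom. Actb, Tagln2 and Flna, the most abundant, had log2 fold changes of 0.39, -0.26 and -0.48, that of Tagln2 being -0.45 after the GC correction. The medians were -0.25 and 0.04, beside 0.01 over all tested genes. A CArG box lay in the 250 bases before a listed start of 1 of the 6 growth factor type targets with a RefSeq promoter and of 5 of the 12 actin type targets with one. By windows, which can overlap, these were 4 of 10, all at 1 gene, and 6 of 13, beside 1.47% of all windows. Only 6 of the 9 growth factor type targets had an entry, and bases farther upstream were not searched, so the classes are not compared by this count.

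Genes whose pattern over the 4 libraries was nearest to that of Elk4 were found by Euclidean distance of centred log2(FPKM + 0.5) values among the 12200 genes whose mean FPKM reached 1. The nearest 5 were Btnl9, a butyrophilin-like gene, Rasa2, a GTPase-activating protein of Ras, Cbl, a ubiquitin ligase of tyrosine kinase receptors, Adamts2, a procollagen peptidase, and Ccr1, a chemokine receptor, at distances of 0.152 to 0.232. Cbl, the most abundant of them, had an FPKM of 31.2 and 32.8 in WT, against 12.4 and 9.60 in CD274-null, and Btnl9 had 10.7 and 11.8 in WT, against 3.17 and 2.73 in CD274-null. With 4 libraries, such likeness is a description only.

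**Figure D5:**
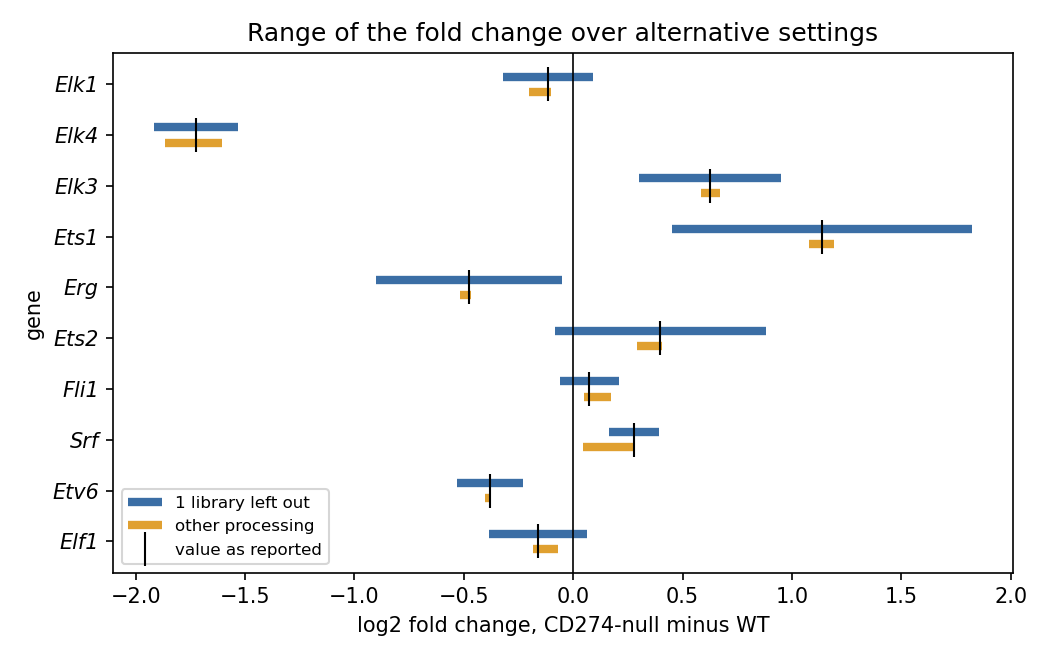
Range of each member's log2 fold change (CD274-null minus WT) when 1 library is left out (blue) and under the other processing alternatives (yellow); the black tick is the value as reported. The whole range of Elk4 lies between -1.91 and -1.53, whereas the ranges of Elk1, Ets2, Fli1 and Elf1 cross 0.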

How the data were processed

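LICs of the MLL-AF9 model were profiled in 4 libraries, 2 per genotype. The authors prepared TruSeq v2 libraries, ran them on a HiSeq2500, used Tophat for alignment to GRCm38, and deposited linear FPKM, 1 value for each gene in each library; the submitters' processing notes name CASAVA 1.8.2 and TopHat2 2.0.12. The program, gene lengths and strand setting behind FPKM are not given in the sources used here. Symbols for 25275 of 27179 gene numbers, and coordinates, came from RefSeq GRCm38.p6; older list symbols were matched through synonyms (117 of 118 list entries). The members and lists were chosen with earlier results of these data known.

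Because low FPKM values are whole multiples of 1 read, reads were recovered (tolerance 0.001 read) for 100% of 17083 genes above 0 in at least 2 libraries; they are lower bounds where the 4 libraries share a factor. FPKM was compared as log2(FPKM + 0.5) in R 4.3.3 by limma 3.58.1 (a linear model, eBayes with trend, two-sided, no covariates), over the 13230 genes whose mean FPKM reached 0.5, with Benjamini-Hochberg adjustment; fold changes on this scale understate those of low genes. The fit was tested on simulated data. Genes named besides the members were tested ETS genes, candidates and the 3 most abundant genes of each list, Cd274, the LIC surface markers and the 5 genes nearest to Elk4. Genes of the cell type marker lists were named where a result turned on them. Gabpb1, Gabpb2, Tagln, Fosb, Nr4a1 and the untested ETS genes Elf3, Ehf, Fev and Spdef were named outside this rule, with their values known. Some genes that this rule or the lists hold are not reported here by name. As nothing states that replicates are separate animals, p-values measure the spread between these libraries, which may be technical. Alternatives were other pseudocounts (1, 0.1), no filter or a mean of 5, quantile or median scaling, no trend, no moderation, a replicate block, a GC correction (loess, span 0.3), each library left out and, added after the data were seen, voom on the recovered reads. GC content was that of the longest GENCODE transcript. Motifs were searched in Python 3.11.15.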

Additional observations from a re-analysis of the deposited data

How the results depend on the processing

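Elk4 was lower in CD274-null under all 16 alternatives, from -1.91 to -1.53 on the log2 scale; as this contrast chose the gene, nothing is read from that. The number of members called, 1 as reported, was 0 without moderation and 0 to 2 with each library left out. For the other ETS genes it was 0 throughout, except 1 with no filter (Elf3, at most 0.283 FPKM in any library). For the cofactors, kinases and targets, 2 as reported, it was 1 with the pseudocount of 0.1, quantile normalization, a mean FPKM minimum of 5, equal medians, no moderation, the replicate block, the GC correction with and without that block, and voom, 0 without trend and 0 to 1 with each library left out. Over all genes, the 480 candidates became 170 without moderation, 283 with the GC correction and replicate block together, and 149 to 645 with each library left out, where a lone library is assumed to vary like the pair. The correlation of same-numbered deviations was -0.0151 across genes, which are not independent replicates. That value cannot show whether libraries with the same replicate number were paired. With the number as a block there were 526 candidates. The GC correction tested 11435 genes in place of 13230, and the cause of these shifts was not tested otherwise. Precision is limited by 2 libraries a group, and among the members Elk1 rests on the fewest reads.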
